A study of Mus musculus with 6 samples.

Results

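The nuclear genes of mitochondrial complex I were followed in mouse liver after treadmill running. Members were all rows of the deposited gene table whose symbol is Nduf followed by a, b, c, s or v and a digit, which gave 39 of 16123 genes. Of these, 35 encode subunits of complex I, 7 of them core and 28 accessory. Ndufb4b and Ndufb4c are copies of Ndufb4. Ndufa4 carries a complex I name but its protein is now counted with complex IV, and Ndufa4l2 encodes a related protein outside complex I. The acyl carrier protein gene Ndufab1 is not matched by this rule, and subunits encoded in mitochondrial DNA were not analysed here. The exercise group held 3 libraries from mice that ran 22 km each over 6 weeks, with the liver collected 24 h after the last session, and the sedentary group held 3 libraries from mice that did not train. All mice were perfused with phosphate buffered saline, and total RNA of whole liver was sequenced. Strain, sex and age are not stated in the labels used.

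Complex I (NADH:ubiquinone oxidoreductase) takes electrons from NADH, passes them along flavin and iron-sulfur clusters to ubiquinone, and pumps protons across the inner mitochondrial membrane. Its peripheral arm holds an N module, where NADH is oxidised, and a Q module, where ubiquinone is reduced. The membrane arm holds the proton pumps and is divided here into a proximal and a distal part. Core subunits carry the catalysis, while accessory subunits surround them and serve assembly and stability. Liver cells are rich in mitochondria and use the chain to oxidise the NADH and reduced flavins made from fatty acids and amino acids.

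The libraries held 17941298 to 18371949 counts. TMM factors, which correct for some genes taking a different share of the reads, ran from 0.972 to 0.977 for sedentary libraries and were 1.03 for exercise libraries. Among genes with 20 to 2000 reads, the chi-square per gene, which is near 1 for counting noise alone, was 1.13 to 1.21 within groups (6 pairs) and 4.51 to 4.81 between groups (9 pairs). Above 2000 reads it was 2.48 to 3.32 within and 141 to 155 between groups. For the complex I subunits the median coefficient of variation between libraries of 1 group was 3.30%, against 3.31% from counting alone. The p-values below therefore measure the spread between these libraries, which may be technical. Of 12 hepatocyte markers 6 rose and 5 fell (edgeR, adjusted p under 0.05). Their sum was 137988 to 140107 CPM (reads scaled to the library total) over the 6 libraries, and after TMM scaling it was 141249 to 144205 in sedentary and 135478 to 136488 in exercise libraries. Skeletal and cardiac muscle markers summed to 14 to 23 reads per library and kidney tubule markers to 7 to 18 reads. Of 12 Kupffer cell and macrophage markers 10 fell, and of 10 liver endothelial markers 4 rose (edgeR, adjusted p under 0.05). Of 7 stellate cell markers 4 rose and 1 fell in the same test, in which 19.1% of all tested genes rose and 19.0% fell. Cholangiocyte markers summed to 1352 to 1428 reads per sedentary and 721 to 777 per exercise library. Of these 6 markers 2 were abundant enough to test, and 1 fell in edgeR (2 at an unadjusted p under 0.05). The 2 had mean levels of 45.6 and 1.325 FPKM, and all 6 summed to 64.5 FPKM in sedentary and 33.5 in exercise libraries. The sum thus mostly follows 1 gene. Of 9 blood cell markers 4 fell and 0 rose in edgeR, also at an unadjusted p under 0.05. With DESeq2 1 of these blood cell markers fell, with limma on log2(FPKM + 1) 2, and with library totals 1. Pancreatic acinar markers summed to 278 to 294 reads per sedentary and 115 to 123 per exercise library. Of these 12 markers 2 were abundant enough to test, and both fell in edgeR, with log2 fold changes of -8.86 and -0.54. The part of these changes in the results below was not tested. In whole liver, fewer cells of a type and less RNA per cell cannot be told apart.

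In exercise, 9 of the 38 tested members were higher, 1 was lower and 28 did not pass the test (edgeR's quasi-likelihood test on TMM-scaled counts, with Benjamini-Hochberg adjustment over 10266 genes and a threshold of 0.05). The higher share was 23.7% of members, against 19.1% of all tested genes called higher. The lower share was 2.63%, against 19.0% called lower, and 38.1% of all genes were called in either direction. The median log2 fold change of the members was 0.05, against -0.00 for all tested genes. Changes were small: the largest rise was 19.4% (Ndufb4, before its copies are summed) and Ndufa8, the single lower gene, fell by 6.90%. Of the 28 members that were not called, 25 had a positive and 3 a negative log2 fold change. Over all tested members 34 of 38 were positive, against 5109 of the 10266 tested genes. TMM-scaled CPM in all exercise libraries lay above all sedentary libraries for 13 members, against 23.3% of all genes, and below them for 1 member, against 23.7%.

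The number of members called depended on the scaling. With library totals in place of TMM, 26 members were higher and 0 lower, and 34.5% of all genes were higher. With limma on log2(FPKM + 1), 18 members were higher and 0 lower, and 27.9% of all genes were higher. With DESeq2, 6 members were higher and 0 lower, and 12.4% of all genes were higher. Called lower over all genes were 11.7% with library totals, 10.7% with limma and 12.1% with DESeq2. Library totals shifted the median of all tested genes to 0.08 and that of the members to 0.13. A factor per library shifts all genes alike, so the gap of 0.05 between the medians cannot change between TMM and library totals. With limma the gap was 0.046 on log2(FPKM + 1) and 0.038 on log2(FPKM + 0.1). With quantile normalization the gap was 0.02 (members 0.03, all genes 0.01), the smallest of the 18 alternatives.

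**Figure D1:**
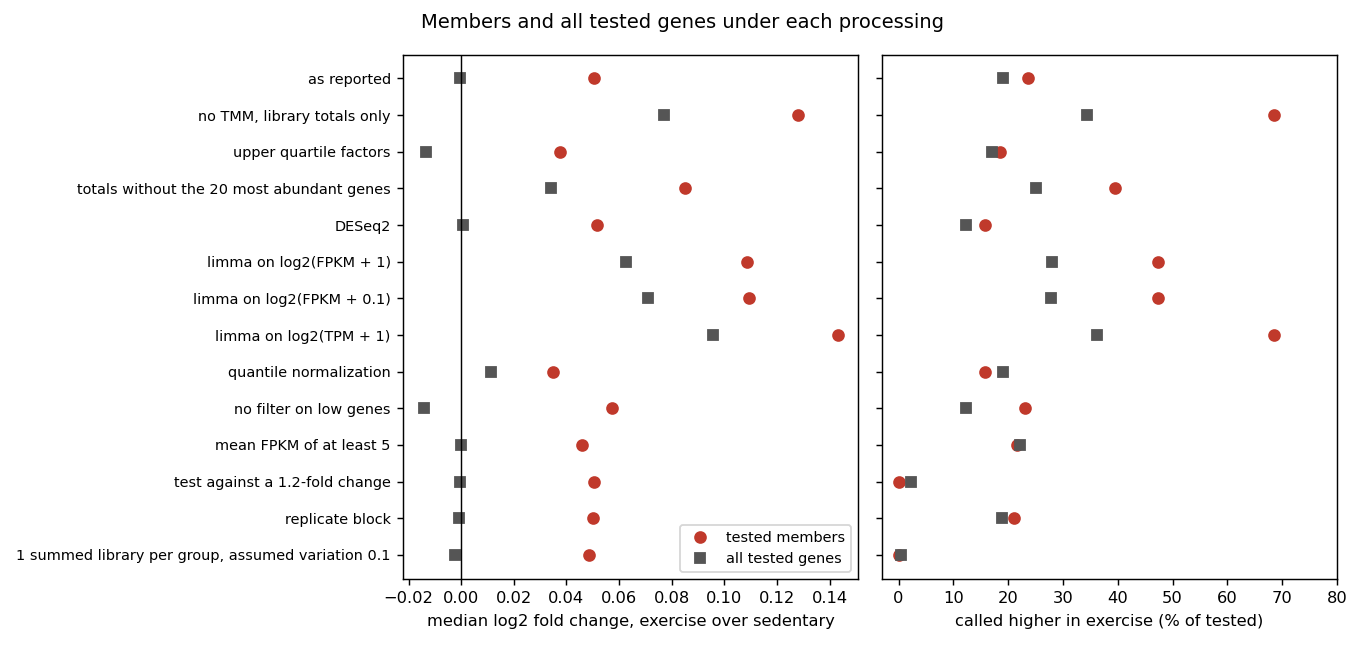
Median log2 fold change (left) and percent of tested genes called higher (right) for members and all tested genes under each processing. The member median lies above that of all genes in every processing drawn, and members called higher range from 0 to 26.

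**Figure D2:**
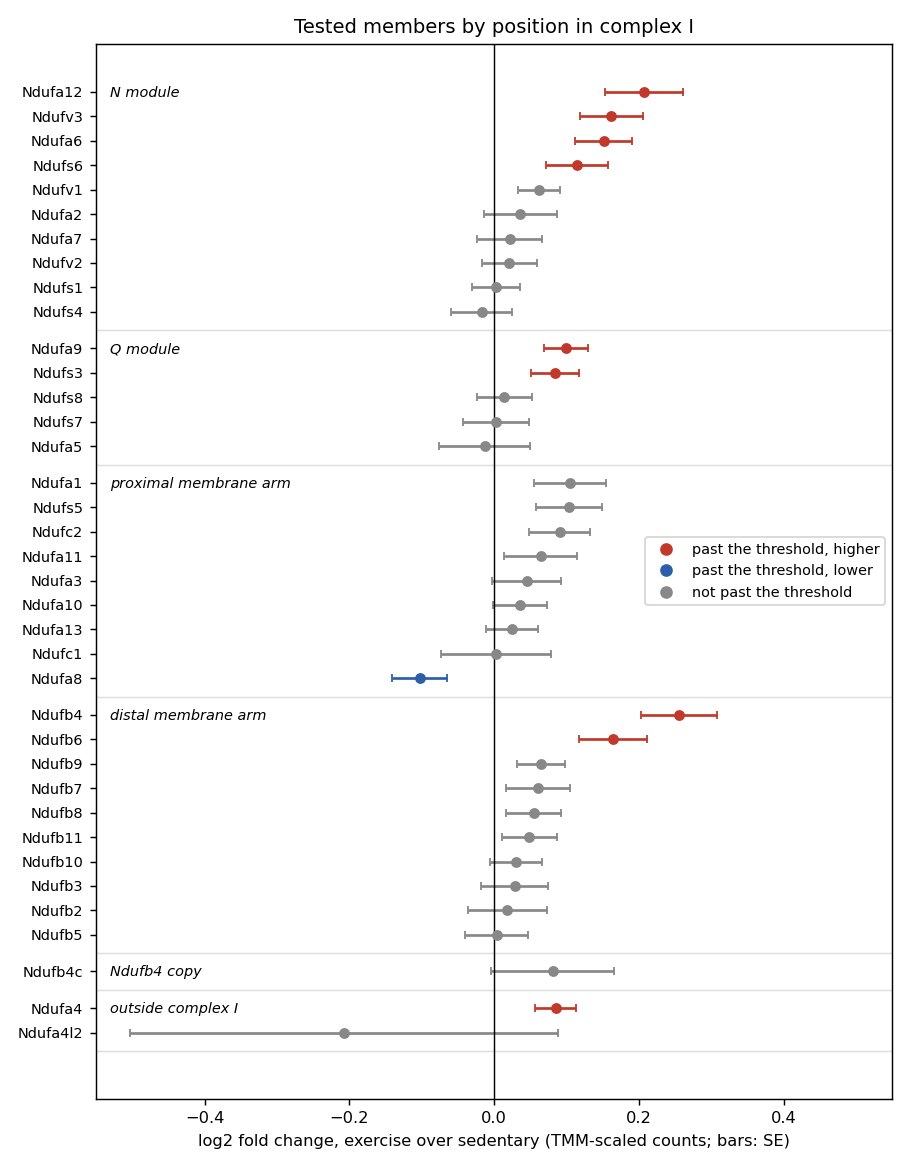
Log2 fold change of 37 of the 38 tested members (x axis, exercise over sedentary, bars are the standard error), grouped by position in complex I. 9 members passed the threshold upward and 1, Ndufa8, downward, and most points lie between 0.00 and 0.10.

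In the N module, 4 of 10 genes rose and 0 fell in edgeR (5 rose and 0 fell at an unadjusted p under 0.05, and 3 and 0 with DESeq2). Over all tested genes, edgeR called 19.1% higher and 19.0% lower. At that unadjusted p, 23.0% of all genes were higher and 22.8% lower, and DESeq2 called 12.4% higher. Library totals gave 7 higher and 0 lower, and limma on FPKM 6 and 0. Of all tested genes, library totals called 34.5% higher and limma on FPKM 27.9%. All 4 genes called higher in edgeR encode accessory subunits. Ndufa12 (gene 66414, chr10:94199035-94221440), a subunit added late to the peripheral arm, had TMM-scaled CPM of 29.1, 33.5 and 33.6 in the sedentary and 35.1, 37.0 and 39.0 in the exercise libraries. The groups did not overlap, and sedentary replicate 1 lay below the other two. Its log2 fold change was 0.21 ± 0.05 (SE, edgeR adjusted p = 0.00168).

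Ndufv3 (gene 78330, chr17:31520115-31531326), a small partner of the flavoprotein pair, had TMM-scaled CPM of 48.8, 51.2 and 46.6 in the sedentary and 53.2, 53.7 and 57.0 in the exercise libraries. Every exercise library was above every sedentary one, with a log2 fold change of 0.16 ± 0.04 (SE, edgeR adjusted p = 0.00238). Ndufa6 (gene 67130, chr15:82350139-82354291), an LYR-motif protein that binds the acyl carrier protein, went from 57.6, 58.2 and 59.3 to 66.5, 62.1 and 65.9. Its groups were also apart, with a log2 fold change of 0.15 ± 0.04 (SE, edgeR adjusted p = 0.00172). Ndufs6 (gene 407785, chr13:73319876-73328482), a zinc-binding subunit, had 43.1, 43.8 and 43.9 in the sedentary and 47.2, 46.9 and 47.5 in the exercise libraries. These values were tight within each group, and the log2 fold change was 0.11 ± 0.04 (SE, edgeR adjusted p = 0.0316). The call of Ndufs6 was lost with DESeq2 and when any 1 of the 6 libraries was left out, and it held under 8 of 18 alternatives.

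The 3 core subunits of the N module did not pass the test. Ndufv1, which binds NADH and the flavin, had TMM-scaled CPM of 164, 155 and 157 in sedentary and 165, 162 and 169 in exercise libraries (log2 fold change 0.06 ± 0.03 SE, edgeR adjusted p = 0.0925). Its groups overlapped through sedentary replicate 1. Ndufs1, which carries several of the iron-sulfur clusters, had a log2 fold change of 0.00 ± 0.03 (SE, edgeR adjusted p = 0.961), with 108, 115 and 108 against 113, 107 and 112. Ndufv2, an iron-sulfur subunit beside Ndufv1, had 66.2, 63.9 and 64.8 against 65.4, 66.0 and 66.2. Ndufs4, an accessory subunit whose loss in mice is a model of Leigh syndrome, had a log2 fold change of -0.02 (edgeR adjusted p = 0.786), and Ndufa2 and Ndufa7 had 0.04 and 0.02.

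In the Q module, 2 of 6 genes rose and 0 fell in edgeR (2 and 0 at an unadjusted p under 0.05, and 1 and 0 with DESeq2). Both library totals and limma on FPKM gave 4 higher and 0 lower. The all-gene higher shares were 19.1% in edgeR, 12.4% with DESeq2, 34.5% with library totals and 27.9% with limma. Ndufa9 (gene 66108, chr6:126821863-126849144), a nucleotide-binding subunit at the junction of the arms, had TMM-scaled CPM of 129, 125 and 125 in sedentary and 138, 137 and 130 in exercise libraries. The groups did not overlap, with a log2 fold change of 0.10 ± 0.03 (SE, edgeR adjusted p = 0.0085). Without exercise replicate 1 it was no longer called. Ndufs3 (gene 68349, chr2:90894627-90904721) was the only core subunit called, with 92.8, 89.2 and 91.1 against 95.1, 95.9 and 98.5 and a log2 fold change of 0.08 ± 0.03 (SE, edgeR adjusted p = 0.041). It held under 8 of 18 alternatives, and was lost with DESeq2 and without replicate 2 or replicate 3 of either group.

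Ndufs7, an iron-sulfur subunit close to the ubiquinone site, had TMM-scaled CPM of 45.7, 42.2 and 47.6 against 44.4, 46.3 and 45.2, and Ndufs8, a ferredoxin-like subunit, had 61.1, 63.5 and 61.0 against 61.9, 62.7 and 62.8. Both were level between the groups, with log2 fold changes of 0.00 and 0.01. Ndufa5 had -0.01. Over all 7 core subunits the median log2 fold change was 0.02 and 1 was called, against 0.05 and 7 higher and 1 lower among the 28 accessory subunits. The difference between core and accessory subunits was not tested.

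In the proximal membrane arm, 0 of 9 genes rose and 1 fell in edgeR (3 rose and 1 fell at an unadjusted p under 0.05, and 0 and 0 with DESeq2). Library totals gave 7 higher and 0 lower, and limma on FPKM 3 and 0. In edgeR 19.1% of all tested genes were higher and 19.0% lower, and at the unadjusted p 23.0% and 22.8%. With library totals 34.5% of all genes were higher, and with limma 27.9%. Ndufa8 (gene 68375, chr2:36036324-36049338), a subunit with paired cysteine motifs on the intermembrane side, had TMM-scaled CPM of 72.1, 70.7 and 68.0 in the sedentary and 64.4, 66.3 and 65.6 in the exercise libraries. All exercise values lay below all sedentary ones, with a log2 fold change of -0.10 ± 0.04 (SE, edgeR adjusted p = 0.0255). This call was not kept without sedentary replicate 1, sedentary replicate 2 or exercise replicate 1. Library totals, DESeq2 and limma on FPKM or TPM did not keep it either. The log2 fold change lay between -0.13 and -0.00 over the 18 alternatives. The call was kept with upper-quartile scaling and with limma after quantile normalization.

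Ndufa1, Ndufs5 and Ndufc2, small membrane-arm subunits, had log2 fold changes of 0.10, 0.10 and 0.09 without passing the test (edgeR adjusted p = 0.0947, 0.0666 and 0.0877). Ndufs5 and Ndufc2 had groups that did not overlap, with 38.3, 39.3 and 38.6 against 40.7, 41.9 and 42.1 for Ndufs5. The other proximal genes, Ndufa3, Ndufa10, Ndufa11, Ndufa13 and Ndufc1, lay between 0.00 and 0.06. Ndufa13 is also known as Grim19, a protein first described in cell death.

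In the distal membrane arm, 2 of 10 genes rose and 0 fell in edgeR (2 and 0 at an unadjusted p under 0.05, and 2 and 0 with DESeq2). Library totals gave 7 higher and 0 lower, and limma on FPKM 4 and 0. Of all tested genes 19.1% were higher in edgeR, 12.4% with DESeq2, 34.5% with library totals and 27.9% with limma. Ndufb4 (gene 68194, chr16:37647602-37654368) had TMM-scaled CPM of 33.6, 33.4 and 28.7 in the sedentary and 39.3, 37.1 and 37.8 in the exercise libraries. The groups did not overlap, although sedentary replicate 3 lay below the other two. Its log2 fold change of 0.26 ± 0.05 (SE, edgeR adjusted p = 0.000105) was the largest among the members, before its copies are summed. Ndufb6 (gene 230075, chr4:40270591-40279421) had 38.7, 39.3 and 36.8 against 41.7, 42.3 and 44.7, and a log2 fold change of 0.16 ± 0.05 (SE, edgeR adjusted p = 0.00414). All exercise libraries were again above all sedentary ones. The other distal genes, Ndufb2, Ndufb3, Ndufb5, Ndufb7, Ndufb8, Ndufb9, Ndufb10 and Ndufb11, ran from 0.00 to 0.06 and none passed the test. Ndufb4, Ndufa12, Ndufb6, Ndufv3 and Ndufa6 were called higher under 17 of the 18 alternatives, the exception being a test against a 1.2-fold change, which no member passed.

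**Figure D3:**
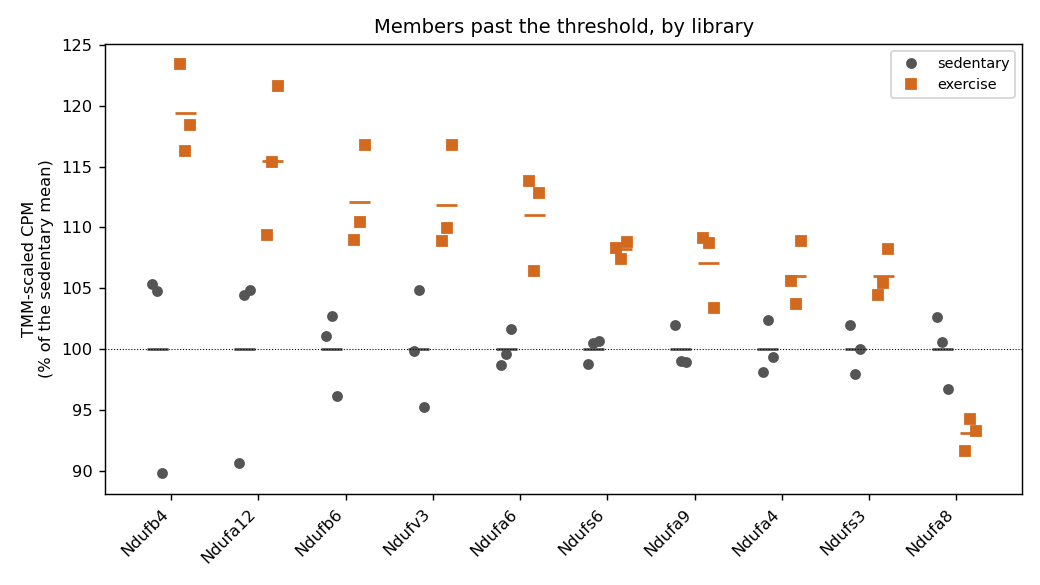
TMM-scaled CPM of the 10 members past the threshold in each of the 6 libraries (y axis, percent of the sedentary mean, horizontal bars are group means). The groups do not overlap in any of the 10, with exercise above in 9 and below in Ndufa8.

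Reads of Ndufb4 cannot be fully separated from those of its copies. Ndufb4c (chr15:73809449-73809933) is a copy without introns whose coding sequence matched that of Ndufb4 at all 390 bases, with 0 mismatches. The first 60 bases of each coding sequence, taken from GENCODE M21 transcripts, are shown because a read inside them names neither gene:
Ndufb4: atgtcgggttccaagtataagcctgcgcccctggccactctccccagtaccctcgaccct
Ndufb4c: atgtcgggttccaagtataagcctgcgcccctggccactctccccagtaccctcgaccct
Only the 3 Ndufb4 genes among the members had counts that were not whole to within 1e-06. Ndufb4c had TMM-scaled CPM of 15.2, 15.3 and 12.8 in the sedentary and 13.6, 14.2 and 18.02 in the exercise libraries, which overlapped (log2 fold change 0.08, edgeR adjusted p = 0.485). Ndufb4b had reads in sedentary replicate 1 alone and was not tested. With the 3 genes summed, an alternative chosen after seeing the data, the log2 fold change was 0.201 and the sum was still called higher. That is below the 0.207 of Ndufa12, so the first rank of Ndufb4 depends on how the shared reads were allotted.

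Of the other 2 members, Ndufa4 (gene 17992, chr6:11900372-11907450) was the most abundant per length, with a mean of 867 FPKM. Its TMM-scaled CPM was 156, 163 and 158 in sedentary and 168, 165 and 173 in exercise libraries. The groups did not overlap, with a log2 fold change of 0.08 ± 0.03 (SE, edgeR adjusted p = 0.0161), a call lost with DESeq2 and without sedentary replicate 1, sedentary replicate 3 or exercise replicate 3. Ndufa4l2, a gene known to respond to low oxygen in other tissues, was near its detection limit at a mean of 15.8 reads, and its log2 fold change of -0.21 ± 0.30 (SE, edgeR adjusted p = 0.617) was not resolved.

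Levels within complex I were uneven on the FPKM scale. After Ndufa4, the highest were Ndufa3 (608 FPKM), Ndufb9 (286 FPKM) and Ndufb10 (277 FPKM). The lowest subunit was Ndufa11 (15.4 FPKM). Among the core subunits named here, Ndufs1 had 45.5 FPKM and Ndufs3 147 FPKM. The length behind each FPKM, worked back from count and library total, ran from 63.9 bases for Ndufa3 to 2425 bases for Ndufs1. From sedentary to exercise its mean changed by -0.02% (Ndufb5) to 4.01% (Ndufa3). Ndufa3 reached its level on a mean of 705 reads and Ndufa11 its low level on 658 reads, so most of the gap between their FPKM comes from the length used.

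**Figure D4:**
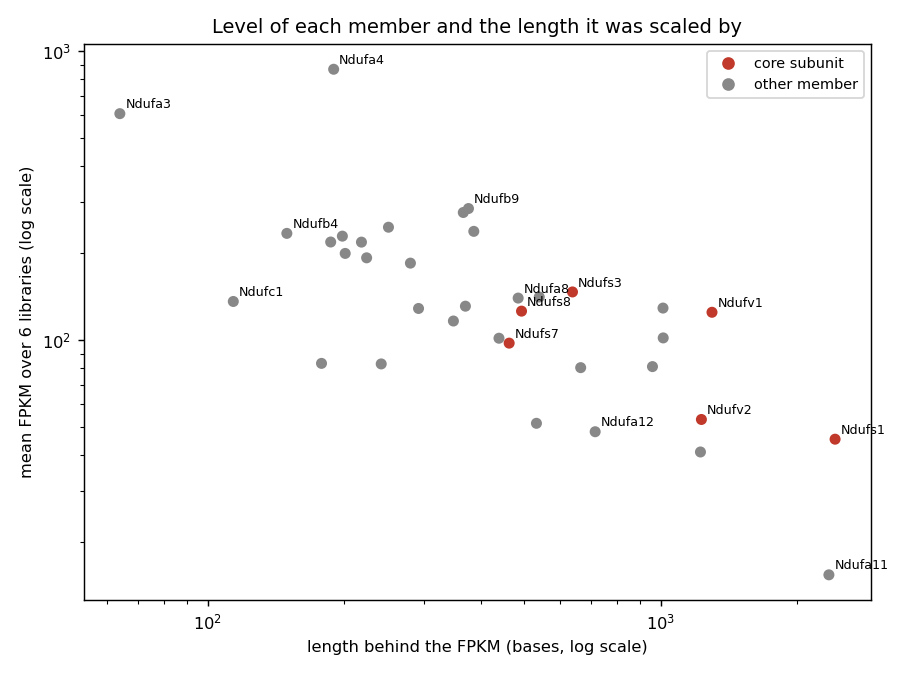
Mean FPKM over 6 libraries (y axis, log scale) against the length behind it (x axis, bases, log scale) for 36 of the 39 members. Ndufa3, scaled by the shortest length, sits high, and Ndufa11 and Ndufs1, scaled by the longest, sit low. Ndufc1, the next shortest at 114 bases, has 136 FPKM.

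As a summed level, the 35 subunits took 2225, 2209 and 2181 CPM of the unscaled library total in sedentary livers and 2440, 2361 and 2455 in the exercise libraries, which is 9.72% more. After TMM scaling the sums were 2290, 2261 and 2244 against 2367, 2303 and 2394, which is 3.96% more. Exercise lay above sedentary in each library on both scales, and the size of the difference depended on the scaling.

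RefSeq promoter windows of GRCm38.p6, 250 bases before the start, were found for 33 members (35 windows), among 32851 windows in all. The searched motifs, on both strands and with overlaps between motifs allowed, were those of factors known to act on mitochondrial genes. The NRF1 motif GCGCATGCG was in 2 member windows (5.71%), against 1.45% of all. A looser form, GCGCANGCG with any base at N, was chosen after the sequences were seen, and it was in 7 member windows (20.0%), against 5.16% of all. These windows belong to Ndufa5, Ndufa8, Ndufa11, Ndufb4, Ndufs5 and Ndufs6. The ETS motif CCGGAAG was in 3 (8.57%, against 6.91%), in Ndufb6, Ndufb7 and Ndufs3, and the Sp1 motif GGGCGG in 13 (37.1%, against 32.7%). The ERR-alpha motif TCAAGGTCA and the YY1 motif AAGATGGCG were in 0 member windows, against 0.387% and 0.606% of all. No test was made of these shares, and a match is letters only. The windows of the 2 highest distal genes and of the only lower gene are shown, with motif letters in capitals. They lie at chr16:37654369-37654618 for Ndufb4, chr4:40279422-40279671 for Ndufb6 and chr2:36049339-36049588 for Ndufa8, all on the minus strand:
Ndufb4: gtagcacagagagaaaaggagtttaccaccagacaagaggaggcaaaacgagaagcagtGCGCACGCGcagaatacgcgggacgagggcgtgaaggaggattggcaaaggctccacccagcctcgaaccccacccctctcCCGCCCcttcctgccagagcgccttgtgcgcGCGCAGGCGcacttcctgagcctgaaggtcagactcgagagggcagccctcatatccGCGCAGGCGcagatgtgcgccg
Ndufb6: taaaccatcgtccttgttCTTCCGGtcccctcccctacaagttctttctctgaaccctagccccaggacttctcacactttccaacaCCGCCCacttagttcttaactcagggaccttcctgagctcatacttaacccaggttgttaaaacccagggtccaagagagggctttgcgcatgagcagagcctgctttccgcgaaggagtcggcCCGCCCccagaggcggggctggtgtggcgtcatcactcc
Ndufa8: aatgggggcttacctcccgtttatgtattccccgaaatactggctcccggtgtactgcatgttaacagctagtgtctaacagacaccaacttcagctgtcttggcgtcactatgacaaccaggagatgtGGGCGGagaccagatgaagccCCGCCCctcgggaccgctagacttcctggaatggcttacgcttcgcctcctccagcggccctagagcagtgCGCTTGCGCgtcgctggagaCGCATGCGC
Ndufb4, which rose, and Ndufa8, which fell, both hold the looser NRF1 letters and Sp1 letters, while Ndufb6 holds ETS and Sp1 letters.

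Among 23 tested genes for assembling complex I, 0 rose and 7 fell in edgeR (1 rose and 9 fell at an unadjusted p under 0.05), with a median log2 fold change of -0.12. Ndufaf7, a methyltransferase of complex I assembly, had TMM-scaled CPM of 14.5, 13.9 and 13.8 in the sedentary and 9.77, 11.5 and 10.1 in the exercise libraries (log2 fold change -0.43 ± 0.08 SE, edgeR adjusted p = 3.7e-05). Lyrm2 and Acad9, a factor of the early membrane arm, had log2 fold changes of -0.55 and -0.18 (edgeR adjusted p = 0.000305 and 0.00178), and Ndufaf3 -0.31. With library totals the list had 2 higher and 2 lower, with DESeq2 0 and 3, and with limma on FPKM 3 and 4. The number of lower calls thus ran from 2 to 7 over these fits. The lower share in edgeR was 30.4%, against 19.0% of all tested genes. At the unadjusted p, 22.8% of all genes were lower. For the other fits the all-gene lower shares were 11.7% (library totals), 12.1% (DESeq2) and 10.7% (limma). Ndufab1, the acyl carrier protein gene, is not matched by the symbol rule and is counted here, not with the subunits. Its log2 fold change was -0.02 (edgeR adjusted p = 0.713). The assembly genes were less abundant than the subunits, with a median of 14.3 FPKM against 131 FPKM. The difference between the lists was not tested.

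The other respiratory complexes had 16 higher and 0 lower of 42 tested genes in edgeR (19 and 0 at an unadjusted p under 0.05, and 11 and 0 with DESeq2), with a median log2 fold change of 0.06. Library totals gave 39 higher and 0 lower, and limma on FPKM 30 and 0. Over all tested genes the higher shares were 19.1% with edgeR, 12.4% with DESeq2, 34.5% with library totals and 27.9% with limma. Complex II had 1 of 4 higher (Sdhb, its iron-sulfur subunit, 0.15). Complex III had 4 of 9 (Uqcrb 0.13, Uqcrh 0.11, Uqcrc2 0.09 and Uqcrq 0.09). Complex IV had 6 of 11, among them Cox5a (0.16), Cox6c (0.13) and Cox4i1 (0.11). Cox7a1, a muscle and brown fat isoform named here after its values were seen, had 3 to 4 reads per sedentary and 6 to 16 per exercise library. Complex V, the ATP synthase, had 5 of 18, with Atp5md (0.18) and Atp5l (0.12) the highest of the 4 named by rule, beside Atp5pb and Atp5c1 (both 0.09).

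Genes around complex I moved in both directions, as did all tested genes, of which 19.1% were higher and 19.0% lower in edgeR. DESeq2 called 12.4% of all genes higher and 12.1% lower, limma on FPKM 27.9% and 10.7%, and library totals 34.5% and 11.7%. At an unadjusted p under 0.05 the edgeR shares were 23.0% and 22.8%. In edgeR 18.8% of the iron-sulfur cluster genes were higher and 12.5% lower, and 15.4% and 23.1% of the ubiquinone synthesis genes. Of 8 other genes that pass electrons to ubiquinone, 3 rose and 1 fell: Etfa (0.16) and Etfdh (0.15), which carry electrons from fatty acid oxidation, and Chdh (0.15) rose, and Prodh (-0.17) fell. DESeq2 and limma on FPKM gave the same counts, and library totals gave 4 and 1. Of 13 ubiquinone synthesis genes 2 rose, with Coq8a at 0.23, and 3 fell, Coq3 (-0.23), Coq7 (-0.23) and Coq9 (-0.13), against 19.0% of all genes called lower. The lower calls numbered 0 with library totals and 1 each with DESeq2 and limma on FPKM. Of 16 genes for iron-sulfur clusters 3 rose, among them Hspa9 (0.09) and Iba57 (0.22), and 2 fell, Fdxr (-0.27) and Hscb (-0.58). DESeq2 gave 1 higher and 1 lower, and both library totals and limma on FPKM gave 5 and 2. Of 8 mitochondrial proteases Lonp1 rose (0.13) and Oma1 (-0.41) and Spg7 (-0.14) fell. DESeq2 gave 1 higher and 1 lower, limma on FPKM 2 and 1, and library totals 3 and 1. Of 12 genes of mitochondrial content 1 rose, the citrate synthase gene Cs (0.10), and 0 fell (4 rose and 2 fell at an unadjusted p under 0.05, and 1 and 0 with DESeq2). Library totals gave 6 higher and limma on FPKM 5, with 0 lower in both.

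Of 12 tested genes that control mitochondrial genes, Yy1 (0.26) and Pprc1 (0.45) rose and Esrra (-0.22), which encodes ERR-alpha, fell, against 19.1% higher and 19.0% lower among all genes. Library totals gave 6 higher and 0 lower, limma on FPKM 3 and 0, and DESeq2 2 and 1, so the call of Esrra was lost with library totals and with limma. Nrf1 had a log2 fold change of 0.19 ± 0.09 (SE, edgeR adjusted p = 0.108), Tfam, which packages mitochondrial DNA, 0.06 (edgeR adjusted p = 0.311) and Ppargc1a, which encodes PGC-1alpha, 0.09 (edgeR adjusted p = 0.559).

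**Figure D5:**
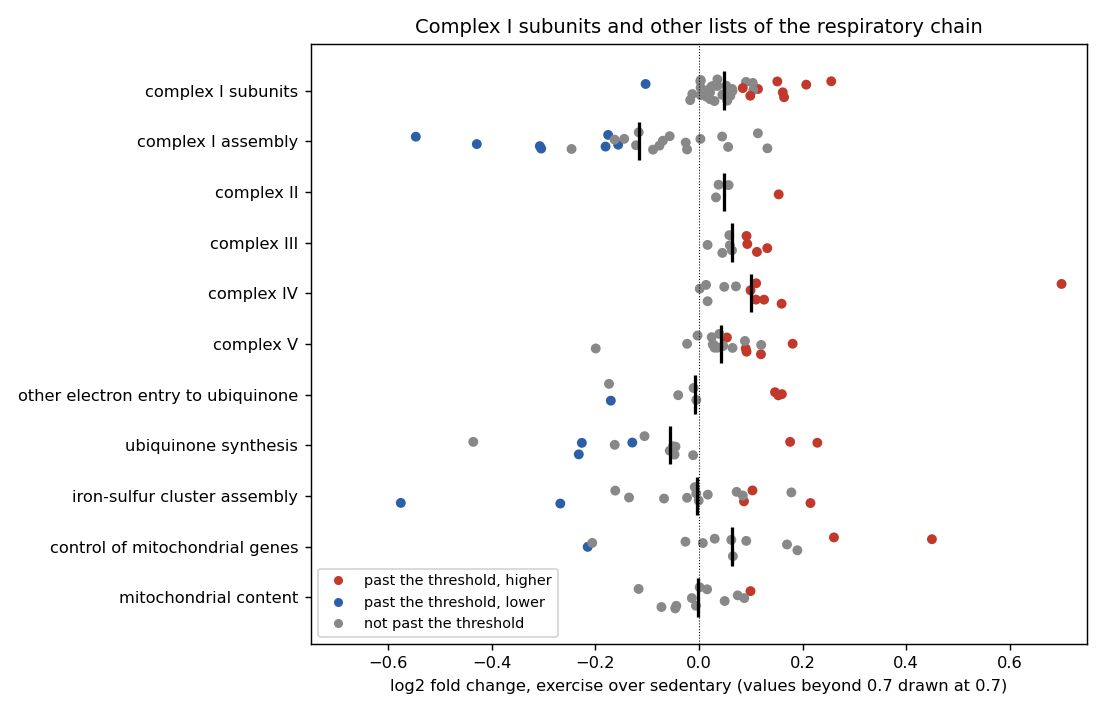
Log2 fold change of each tested gene (x axis, exercise over sedentary) in the complex I subunits and other lists, with the list median as a black line. The subunits and complexes II to V have medians above 0 and the assembly genes a median of -0.12, and Cox7a1 lies beyond the drawn range.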

How the data were processed

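RNA-seq of mouse liver was deposited as 1 gene table with 3 exercise and 3 sedentary libraries. The submitters' processing notes name GRCm38.p6, MultiQC, featureCounts and cutadapt. Versions, aligner, annotation and strand setting were not given in the sources used here. Per the file headers, the deposited table holds a read count, an FPKM and a TPM per gene and library. The deposited counts are estimated counts, not all whole, and were rounded. The 6 average columns were not used.

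The 10266 genes whose mean FPKM reached 1 were tested with edgeR 4.0.16 in R 4.3.3 (TMM, quasi-likelihood, two-sided, no covariates), with Benjamini-Hochberg adjustment over all of them and calls at an adjusted p below 0.05. Fold changes are exercise over sedentary, and each SE was derived from the F statistic. DESeq2 1.42.0, limma 3.58.1 (pseudocounts 1 and 0.1), other scalings and filters, a replicate block and leaving out each library were the alternatives.

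Members and lists were chosen with earlier results of these data known. Named genes were the members past the threshold, the 4 most and 3 least abundant by FPKM, the core subunits, Ndufa4, Ndufa4l2, at most 4 called genes with the smallest p per list, and Ppargc1a, Nrf1, Esrra, Tfam and Ndufab1. Remaining members are given for completeness. The values of 1 member are not reported here, although it is counted in all totals. Library depths were alike, so counting error limits low genes most. Sequences and coordinates are RefSeq's, except where GENCODE is named.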

Additional observations from a re-analysis of the deposited data

How the results depend on the processing

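No member or listed gene that was named as called changed sign under 18 alternatives (the summed fit left out), while 14 of the 28 members that were not called did in at least 1 (for example Ndufs4 and Ndufa5, negative as reported and positive with library totals). Members with a positive log2 fold change numbered 28 to 36 over these alternatives, in which the median of all genes ran from -0.014 to 0.096. The number of members called higher (9) became 26 with library totals and 15 with totals without the 20 most abundant genes. It became 18 and 18 with limma on FPKM at either pseudocount, 26 with limma on TPM and 0 in a test against a 1.2-fold change. All-gene higher shares were 34.5% with library totals, 25.2% without the 20 most abundant genes and 2.33% in the 1.2-fold test. With limma they were 27.9% and 27.8% on FPKM and 36.2% on TPM, against 19.1% as reported. The 1 member called lower became 0 under library totals, totals without the 20 most abundant genes and DESeq2. It also became 0 under the 3 limma fits on FPKM or TPM, no filter on low genes and the 1.2-fold test. Over all genes the 1952 lower calls became 414 in the 1.2-fold test and 915 to 1926 in the other fits named here. The 3913 genes called became 2512 with DESeq2 and 653 in the 1.2-fold test. The members' median log2 fold change (0.05) moved to 0.128 with library totals, 0.0852 without the 20 most abundant genes, 0.108 and 0.109 with limma on FPKM and 0.143 with limma on TPM, while the median of all genes moved in the same direction. The cause was not tested beyond the scaling itself. With 1 summed library per group and an assumed variation of 0.1, chosen after seeing the data, 0 members were higher, 0 lower and 179 genes called. The estimated variation was 1.84%, so calls from this fit follow from the assumption and test nothing about the members. Leaving out 1 library gave 6 to 9 members higher, 0 to 1 lower, 3402 to 3491 genes called and a median of 0.0355 to 0.0721. The higher share was then 15.8% to 23.7% of members, against 16.7% to 17.2% of all genes.

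With the replicate block, which ended the call of Ndufs3, 8 members were higher, 1 lower, 3846 genes were called and the median was 0.0502. Of all genes 18.8% were higher with the block. Same-numbered libraries did not deviate together (correlations of -0.031, -0.016 and -0.025), so the numbers are taken as names only.

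Depth limits Ndufa4l2 (15.8 reads) and the Ndufb4 copies most. With 3 libraries per group that differ little beyond counting, spread between animals is not resolved.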
